A study of Oryctolagus cuniculus with 4 samples.

Results

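In the supraspinatus section taken 16 weeks after tenotomy, 283 of 1726 capture spots were treated as adipose spots. A spot qualified when CIDEA, AQP8 and PTGER3 together contributed 2 or more unique molecular identifiers (UMIs, each counted as 1 captured transcript), and the 932 spots with 0 UMIs of all 3 genes and 500 or more UMIs in total served as other spots. A further 384 spots with exactly 1 selector UMI, and 127 with none and fewer than 500 UMIs, were kept out of both groups. CIDEA encodes a lipid droplet protein, AQP8 a water channel and PTGER3 a receptor for prostaglandin E2. The spots were thus chosen by the measured UMIs of these 3 genes, so their own levels are a description and no finding.

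The series held 4 Visium sections with 6970 spots in all, each from the rabbit supraspinatus, a rotator cuff muscle, of skeletally mature female New Zealand White animals. Muscle was harvested 16 weeks after tenotomy, 2 weeks after tenotomy or from healthy shoulders, and these 3 sections had been stored frozen for 6 years. The last section was healthy muscle that was freshly frozen. There was 1 section per condition. The labels give the 16-week section and the stored healthy section the same number with the letters L and R. These may stand for 1 animal and its opposite sides, which the labels do not say.

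Adipocytes store triglyceride in a lipid droplet, take up fatty acids that lipoprotein lipase releases from circulating lipoproteins, and release them again through hormone-controlled lipolysis. PPARG and CEBPA are the transcription factors best known for adipocyte differentiation. After a rotator cuff tendon is cut or torn, fat accumulates between and around the muscle fibers, a change known as fatty infiltration. A Visium spot covers several cells, so an adipose spot can hold muscle fibers, fibroblasts and vessels, and another spot can hold adipocytes whose transcripts of the 3 selectors were not captured. More adipocytes and more RNA per adipocyte cannot be told apart in such data.

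Selector UMIs were sparse. CIDEA had 343, AQP8 366 and PTGER3 455 UMIs in the whole section, and the highest sum in any spot was 10. Of the adipose spots, 159 had exactly 2 selector UMIs, 66 had 3 and 58 had 4 or more. All 3 selector genes were detected in 27 adipose spots, 2 of them in 160 and only 1 in 96. Where 1 selector was detected, the level of each other selector was between 1.67-fold and 1.97-fold that in the spots without it. The adipose spots made up 16.4% of the section (exact 95% binomial interval 14.7 to 18.2%, which, like all intervals here, covers counting error only).

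The same rule found few spots in the other sections. It was met by 13 of 854 spots at 2 weeks (1.52%), by 2 of 2440 in stored healthy muscle (0.0820%) and by 5 of 1950 in fresh healthy muscle (0.256%). For thinning, spots with under 500 non-mitochondrial UMIs were left out, 226, 44, 91 and 260 in the 16-week, 2-week, stored healthy and fresh healthy sections. After the remaining spots were thinned to 500 such UMIs, their shares were 4%, 0.741%, 0.0426% and 0% in the same order. The last, 0 of 1690 spots, has an upper limit of 0.218%. The 16-week share stood above the others before and after thinning, which describes the UMIs of the selectors themselves and is no separate finding. With 1 section per condition, the conditions have no replicate check.

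Adipose spots had a median of 2293 UMIs (459 to 11196) and other spots 2233.5 (504 to 12439). The medians were close, but the other spots were more widely spread, with quartiles of 1178 and 4378 UMIs against 1485 and 3551, and 45.9% of them had under 2000 UMIs against 40.3% of adipose spots. Mitochondrially encoded genes took 29.0% of the UMIs of adipose spots and 36.9% of those of other spots, and they were therefore left out of the denominator. A level below is a gene's summed UMIs per 10000 summed non-mitochondrial UMIs of the group, and a fold is the ratio of these levels in adipose over other spots. Spots of 1 section are not replicates of a condition, so no p-values were computed.

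The adipose label was compared with 15 adipocyte genes that did not choose the spots. Only 5 of them have a feature under their name in the count table. LPL, PPARG, CEBPA and ADIPOQ had UMIs, and LEP had none. Their sum was 41.5 per 10000 in adipose and 19.4 in other spots, a fold of 2.13 (95% interval 2.02 to 2.25). The sum was carried by LPL, with 1765 of its 2329 UMIs in adipose and 2689 of its 3401 in other spots. ADIPOQ, which encodes adiponectin, had only 10 UMIs in adipose and 18 in other spots. UCP1, the uncoupling protein of thermogenic fat, had 0 UMIs in both groups, which allows up to 0.0534 per 10000 in the adipose spots. The data thus placed adipocyte genes higher in these spots, with the adipokine genes at or near 0.

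Markers of other cell types also differed between the groups. The summed muscle fiber markers were at 0.717-fold, fibroblast markers at 1.27-fold, macrophage markers at 1.48-fold and endothelial markers at 1.54-fold, the last on 2 of 4 genes, with KDR and CDH5 at 0. Smooth muscle and pericyte markers were at 1.40-fold, carried by ACTA2 with 370 and 746 UMIs. MYH11 had 74 and 237 UMIs and RGS5 2 and 8, and the longer list of this cell type had a median log2 ratio of -0.03. Plasma cell markers were at 2.96-fold on 55 and 58 UMIs. The part of these cell types in the gene differences below was not tested.

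Of 2893 genes with 50 or more UMIs in both groups together, 124 were at least 2-fold higher in adipose spots (4.29% of the genes) and 26 at least 2-fold lower (0.899%). For these counts 0.5 UMI was added to each sum before the log2 ratio was taken, and by the plain ratio of levels 121 genes were at 2 or more and 35 at 0.5 or less. The whole counting interval lay past 2-fold for 24 (0.83%) and 1 (0.0346%) of the genes, above 1 for 644 (22.3%) and below 1 for 278 (9.61%). The median gene had a log2 ratio of 0.16, so the scale itself leaned toward the adipose spots. After thinning to 500 UMIs per spot 35 genes were 2-fold higher, out of only those that still had 50 or more UMIs. With the median gene set to 0, 75 genes were higher and 52 lower past the same fold, and with mitochondrial genes left in the denominator 241 were higher and 19 lower. Without the adipose spot in which each gene was highest, 91 of the 124 were still 2-fold higher and all 124 had a log2 ratio of 0.87 or more. Just inside the log2 threshold lay TMEM131L and TRA2A, each at 1.0004 with 21 UMIs in adipose and 33 in other spots. MME and TRIM41 lay just outside it, each at 0.9987 with 37 and 58 UMIs. Their plain ratios were 1.98 for the first pair and 1.99 for the second, so the order of these 4 rests on the 0.5 UMI added.

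**Figure D1:**
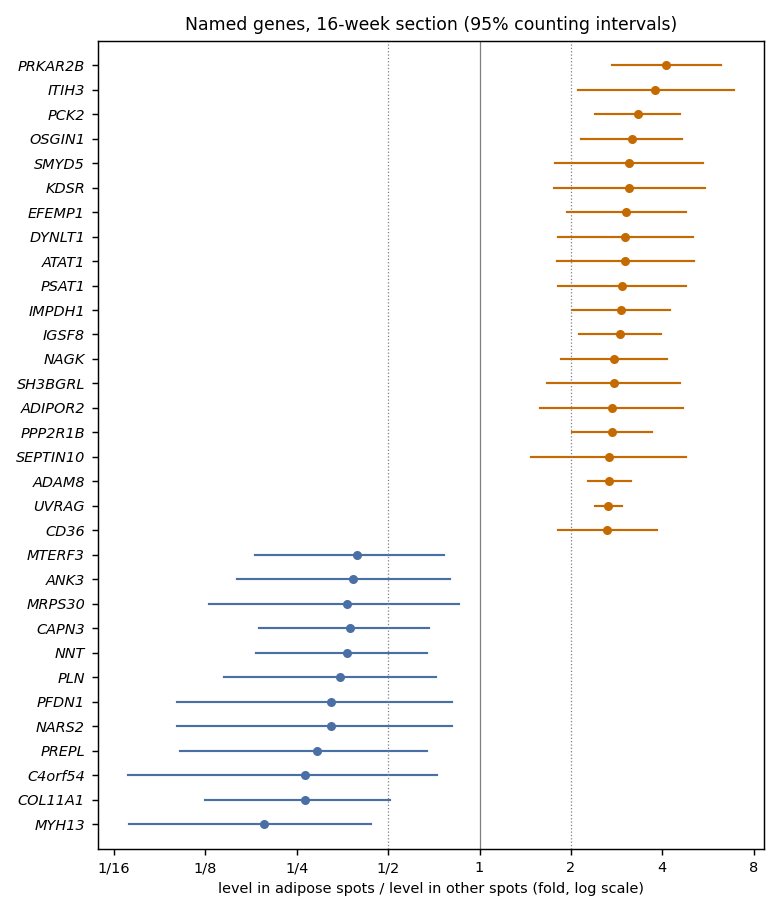
Fold of the 20 named genes with the largest ratios (orange) and the 12 with the smallest (blue) in adipose over other spots of the 16-week section, on a log axis. Points are ratios of summed levels, lines 95% counting intervals, and dotted lines mark 2-fold; PRKAR2B is at the top at 4.11 and MYH13 at the bottom at 0.195.

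PRKAR2B, a regulatory subunit of protein kinase A, which relays the hormonal signal for lipolysis, had the largest ratio of the genes with a symbol. Its 58 UMIs in adipose and 44 in other spots gave levels of 1.03 and 0.251 per 10000, a fold of 4.11 (2.73 to 6.23). It was detected in 48 of 283 adipose and 39 of 932 other spots, with at most 3 UMIs in a spot. G0S2, which inhibits the first lipase of triglyceride breakdown, was at 2.36-fold (1.39 to 3.96) on 28 and 37 UMIs. These were the only 2 measured genes of 17 on the lipolysis list, and both were past 2-fold.

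Among adipocyte transcription factors, 5 genes were measured and 3 were 2-fold higher, beside 4.29% of all genes. The list median log2 ratio was 1.27 beside 0.16 for all genes. CEBPA had 0, 1 and 10 UMIs as the lowest, median and highest adipose spot, and 0, 0 and 6 in other spots. Its summed levels of 7.98 and 3.18 per 10000 differed 2.51-fold (2.21 to 2.84). The per-spot ranges overlapped, and CEBPA was detected in 71.4% of adipose and 39.1% of other spots. PPARG was 2.41-fold higher (1.85 to 3.13) and NR1H3, the liver X receptor alpha that senses oxysterols, 2.48-fold (1.54 to 3.96). NR1H3 had 35 and 44 UMIs, so it was measured only through the adipose spots. STAT5A was at 1.45-fold and KLF15 at 1.27-fold, below the fold used here.

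LPL encodes lipoprotein lipase and had the most UMIs of the adipocyte genes on the lists. It had a lowest, median and highest count of 0, 5 and 41 in adipose spots and 0, 2 and 23 in other spots. The levels were 31.4 and 15.4 per 10000, a fold of 2.05 (1.93 to 2.17). Most spots of both groups held LPL, 268 of 283 adipose and 793 of 932 other spots. Both the share of spots with LPL and the median count were higher in adipose spots. CD36, a fatty acid transporter, was at 2.64-fold (1.81 to 3.84) on 55 and 65 UMIs.

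The list for fatty acid uptake and binding, LPL and CD36 included, had 2 of 10 measured genes 2-fold higher, beside 4.29% of all genes. Its median log2 ratio was 0.35. CAV1 and CAV2, which form the caveolae abundant in adipocyte membranes, were at 1.57-fold (1.43 to 1.74) and 1.64-fold (1.42 to 1.90). The binding protein FABP5 was at 1.44-fold (1.33 to 1.57). FABP3, the heart and muscle form, went the other way at 0.552-fold (0.485 to 0.627). Members of 1 function thus differed in direction.

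Genes of lipid synthesis and storage were thinly measured. ACLY, which makes cytosolic acetyl-CoA from citrate, was at 1.97-fold (1.34 to 2.86) and the elongase ELOVL5 at 1.53-fold (1.23 to 1.90), the only 2 of 19 genes on that list with enough UMIs. GPAT3 and GPAM, acyltransferases of triglyceride synthesis, were at 0.992-fold and 0.881-fold with intervals that included 1. Of the lipid droplet list, 4 of 18 were measured. G0S2, measured only through the adipose spots, was the 1 past 2-fold, beside 4.29% of all genes. AUP1 was at 1.54-fold, PLIN2 at 0.831-fold, and FITM1, the muscle form of the droplet-forming FIT proteins, at 0.654-fold (0.570 to 0.748).

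SNCG, a synuclein found in adipocytes as well as in peripheral neurons, was among the adipose-spot genes with most UMIs. Its lowest, median and highest counts were 0, 5 and 25 in adipose spots and 0, 1 and 24 in other spots. The levels of 28.1 and 10.7 per 10000 gave a fold of 2.63 (2.45 to 2.81). SNCG was detected in 94.0% of adipose and 73.4% of other spots. It stands on the Schwann cell and nerve list here with S100B, 2.06-fold, and the receptor GFRA3, 2.52-fold on 59 and 73 UMIs.

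PCK2, the mitochondrial phosphoenolpyruvate carboxykinase, was at 3.31-fold (2.41 to 4.56) on 84 and 79 UMIs. PSAT1 and PHGDH, enzymes of serine synthesis, were at 2.95-fold (1.82 to 4.79) and 2.36-fold (1.88 to 2.95). TKT, the transketolase of the pentose phosphate pathway, was at 2.50-fold (2.05 to 3.03). TKT was picked, and these 4 genes were set side by side, after their values were seen.

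Of 8 measured glycolysis genes 1 was past 2-fold higher, 2 had an interval above 1 and 4 an interval below 1, with a list median log2 ratio of -0.16 beside 0.16 for all genes. That gene was the aldolase isoform ALDOC, whose levels of 14.8 and 6.42 per 10000 differed 2.31-fold (2.11 to 2.53), while the muscle isoform ALDOA was at 0.865-fold (0.839 to 0.891). The 8 measured genes of the tricarboxylic acid cycle had a median of -0.13 with none past 2-fold in either direction and 3 with an interval below 1. With mitochondrial genes in the denominator, which takes the median of all genes to 0.33, both list medians came to 0.01 and 0.04. Fatty acid oxidation had a median of 0.26 over 8 genes, none past 2-fold and 5 with an interval above 1, with HADH at the top at 1.78-fold (1.22 to 2.57). Of all genes, 22.3% had an interval above 1 and 9.61% below 1, and 4.29% were 2-fold higher.

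Further named genes spanned many functions. ITIH3, which encodes a hyaluronan-binding plasma protein, was at 3.79-fold (2.11 to 6.90) on 28 and 23 UMIs. OSGIN1, a gene induced by oxidative stress, was at 3.17-fold, KDSR, an enzyme of sphingolipid synthesis, at 3.12-fold and the methyltransferase family member SMYD5 at 3.12-fold. The matrix protein gene EFEMP1 was at 3.04-fold. The dynein light chain DYNLT1 and the tubulin acetyltransferase ATAT1 were at 3.03-fold and 3.02-fold.

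IMPDH1, of guanine nucleotide synthesis, was at 2.92-fold, the membrane protein IGSF8 at 2.90-fold and the sugar kinase NAGK at 2.78-fold. SH3BGRL was at 2.77-fold and SEPTIN10, of the septin cytoskeleton, at 2.67-fold. ADIPOR2, a receptor for adiponectin, was at 2.73-fold (1.58 to 4.68) on only 28 and 32 UMIs. PPP2R1B, a scaffold subunit of protein phosphatase 2A, had the same fold on 84 and 96 UMIs. All 20 named higher genes had intervals above 1, but they were picked as the largest ratios on these same counts, so this is no separate support. Among them PRKAR2B, ITIH3, SMYD5, KDSR, EFEMP1, DYNLT1, ATAT1, PSAT1, SH3BGRL, ADIPOR2 and SEPTIN10 had 23 to 44 UMIs in the other spots. They were thus measured only through the adipose spots.

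The metalloprotease ADAM8 and the autophagy gene UVRAG combined a high fold with many UMIs. ADAM8 was at 2.68-fold (2.28 to 3.15) on 287 and 334 UMIs. UVRAG had a median of 2 UMIs in adipose and 1 in other spots, and its 12.6 and 4.74 per 10000 gave a fold of 2.66 (2.40 to 2.94). In the RefSeq annotation of assembly mOryCun1.1 the gene next to UVRAG is DGAT2, the last enzyme of triglyceride synthesis, and no feature of the count table carries that name. Whether transcripts of DGAT2 were counted in UVRAG was not tested.

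Features without a symbol held some of the largest values. ENSOCUG00000001375 was detected in 97.9% of adipose and 80.9% of other spots, with a median of 7 and 2 UMIs, and was at 2.84-fold (2.68 to 3.0). ENSOCUG00000027394 was at 3.0-fold (2.87 to 3.14), though it was found in only 52.7% and 43.0% of spots. Single spots held 300 of its 3663 UMIs in adipose and 490 of its 3805 in other spots. In the spots that met the selector rule at 2 weeks it was at 0.964-fold (0.537 to 1.60) on 15 and 775 UMIs. ENSOCUG00000021096 had the largest ratio, 11.7-fold, on 49 and 13 UMIs, and without the 1 adipose spot that held most of them it was 3.86-fold (1.74 to 8.73). ENSOCUG00000028133 and ENSOCUG00000022908 were at 2.93-fold and 2.83-fold on about as few UMIs as the lower-count named genes.

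**Figure D2:**
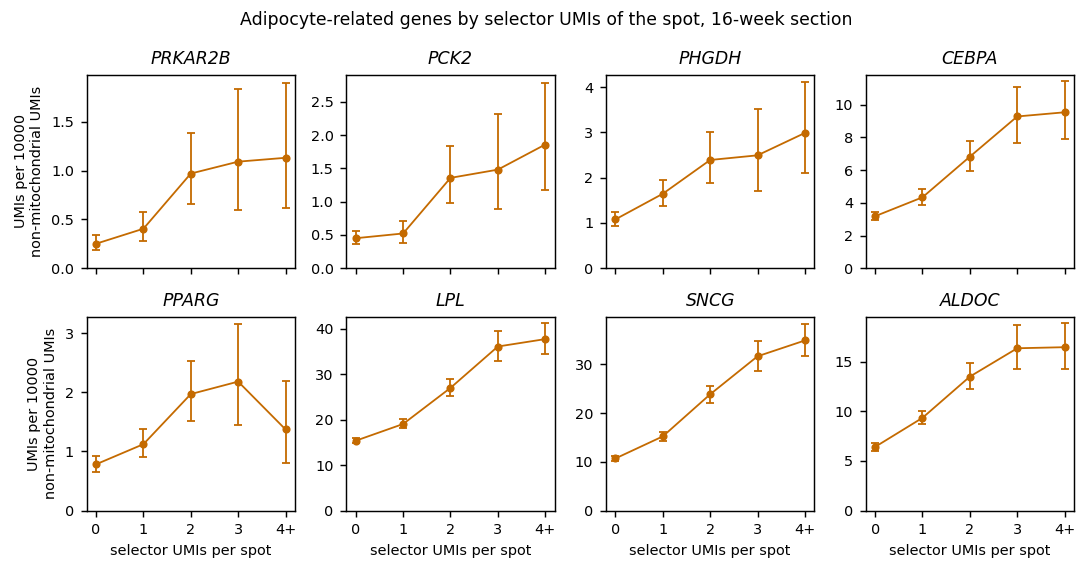
Level of 8 genes in UMIs per 10000 non-mitochondrial UMIs (vertical axes, each starting at 0), with 95% counting intervals. The spots of the 16-week section are grouped by 0, 1, 2, 3 and 4 or more selector UMIs (932, 384, 159, 66 and 58 spots). All 8 genes were 2-fold higher in adipose spots, and the term adipocyte-related in the title is not a result of these data. SNCG goes from 10.7 to 34.9 and LPL from 15.4 to 37.7, while PPARG is lower at 4 or more than at 3.

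SNCG and LPL were graded with the selector count. SNCG stood at 10.7, 15.2, 23.8, 31.6 and 34.9 per 10000 in spots with 0, 1, 2, 3 and 4 or more selector UMIs. LPL stood at 15.4, 19.0, 27.0, 36.1 and 37.7. The spots with 1 selector UMI, which belonged to neither group, lay between them for both genes. PPARG had 0.782, 1.12, 1.97, 2.18 and 1.37 per 10000, and the interval of the last level, 0.800 to 2.20, included the one before it.

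Of the 20 named higher genes, 20 were higher with 1 than with 0 selector UMIs, 20 with 2 than with 1, 16 with 3 than with 2 and 11 with 4 or more than with 3. The level of 7 genes was higher at every step, so most of the 20 were not graded throughout. The mitochondrial share went down along the same steps, from 36.9% to 32.8%, 31.6%, 26.8% and 23.8%. The named genes were picked on the spots with 0 and with 2 or more selector UMIs. The steps from 0 to 1 and from 1 to 2 each have 1 end in spots that the pick used. Their counts of 20 are therefore no independent support. The pick did not use the order among the spots with 2, 3 and 4 or more. The share of all genes that were higher at each step was not computed, so the 16 and 11 have no background.

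**Figure D3:**
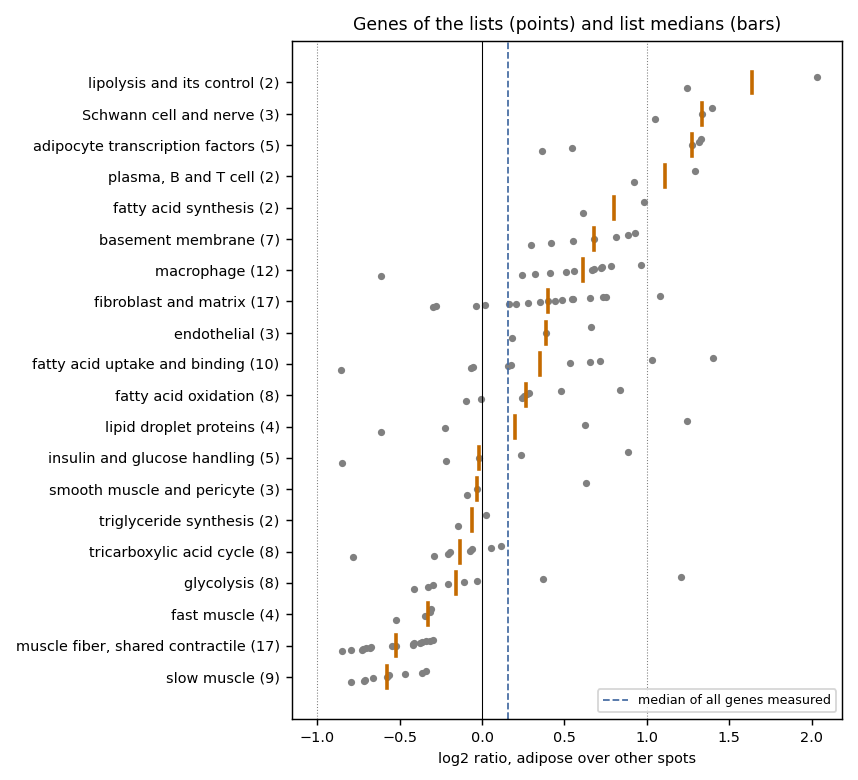
Log2 ratio of adipose over other spots for each measured gene (grey points) of the gene lists with 2 or more measured genes, with the number measured in parentheses and the list median as an orange bar. The dashed line is the median of all genes (0.16) and dotted lines mark 2-fold. Slow muscle is lowest at -0.58 and lipolysis highest at 1.64, on 2 genes measured only through the adipose spots.

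Muscle fiber genes were lower in adipose spots. Of 17 measured genes of the contractile apparatus, 16 had an interval below 1, beside 9.61% of all genes. None was 2-fold lower, and the list median log2 ratio was -0.52. The list summed to 369 per 10000 in adipose and 509 in other spots. Per spot, the list took 0.305, 2.95 and 9.49% of non-mitochondrial UMIs as the lowest, median and highest adipose spot, and 0.233, 4.66 and 11.9% in other spots. The ranges overlapped almost fully, and no adipose spot was without contractile transcripts.

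Slow and fast fiber genes went the same way. The 9 slow genes had a median of -0.58 and the 4 fast genes a median of -0.33. Every one of these intervals was below 1, beside 9.61% of all genes. MYH7, the slow myosin heavy chain, was at 0.677-fold (0.663 to 0.691) and MYH1, a fast one, at 0.804-fold (0.781 to 0.828). ATP2A2, the slow calcium pump, was at 0.610-fold (0.569 to 0.654). SMPX and CSRP3, proteins of the stretch-sensing machinery of striated muscle, were at 0.552-fold and 0.612-fold.

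**Figure D4:**
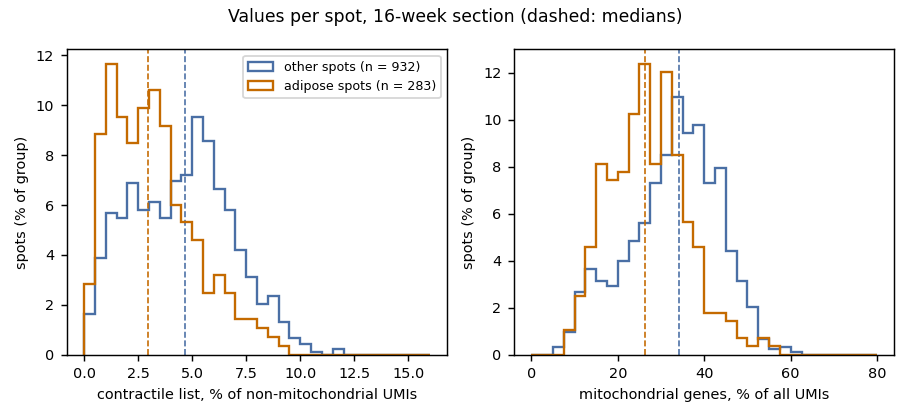
Distribution over spots of the share of contractile list UMIs among non-mitochondrial UMIs (left) and of the mitochondrial share of all UMIs (right) in 283 adipose and 932 other spots, each as a percentage of its group. Dashed lines are medians (2.95 and 4.66% on the left, 26.3 and 34.2% on the right), and both pairs of distributions overlap.

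The genes with the smallest ratios carried few UMIs. MYH13, a myosin heavy chain best known from extraocular muscle, was at 0.195-fold (0.0698 to 0.440) on 6 and 96 UMIs. Of the 96, 41 were in 1 of the 40 other spots with MYH13, and without that spot the ratio was 0.339 (0.119 to 0.787). This was the 1 lower gene whose whole interval lay past 2-fold, and it did not without that spot. With spots of 1 selector UMI counted as adipose, its log2 ratio turned to 0.62. PLN, which restrains the calcium pump of slow muscle, was at 0.346-fold (0.144 to 0.720), and CAPN3, the muscle calpain, at 0.374-fold (0.187 to 0.683). COL11A1, a fibrillar collagen gene, was at 0.266-fold on 10 and 117 UMIs. These 4 genes had intervals below 1, on the same counts on which they were picked.

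NNT, the transhydrogenase of the inner membrane, was at 0.367-fold, and NARS2, MRPS30 and MTERF3, which serve mitochondrial protein synthesis, were at 0.325, 0.367 and 0.395-fold. These 4 of the 12 lower genes were set together after their values were seen. The 25 measured nuclear genes of the respiratory chain had a median log2 ratio of -0.16 with none past 2-fold. The mitochondrially encoded genes, set against all UMIs, had a median of -0.40 over 28 genes with 1 past 2-fold lower. PREPL, PFDN1, ANK3 and C4orf54 completed the 12 lower genes at 0.292, 0.325, 0.384 and 0.265-fold, and ANK3 had a log2 ratio of 0.039 after thinning.

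Stromal and immune genes were mostly above the all-gene median. All 7 measured basement membrane genes had ratios above 1, and their median log2 ratio was 0.68. An interval above 1 was found for 6 of them, beside 22.3% of all genes. COL4A2, a chain of the collagen IV that surrounds adipocytes, fibers and vessels alike, had the most UMIs of the list and was at 1.85-fold (1.70 to 2.00). The 17 fibroblast and matrix genes had a median of 0.40, with COL5A2 alone past 2-fold on 31 and 46 UMIs, beside 4.29% of all genes. DPT was at 1.68-fold (1.58 to 1.79) and COL3A1 at 1.47-fold (1.40 to 1.54), while COL1A2 was at 0.975-fold (0.919 to 1.03). Of 12 macrophage genes none was past 2-fold and 8 had an interval above 1, beside 22.3% of all genes, with a median of 0.61. The scavenger receptor gene STAB1 was highest at 1.95-fold (1.54 to 2.46), and SPP1 was at 0.634-fold (0.310 to 1.19).

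The fibroblast and macrophage values differed with depth. Among spots with under 2000 UMIs, the fibroblast list summed to 273 per 10000 in adipose and 299 in other spots, so the order turned, and with 2000 or more UMIs it summed to 171 and 112. The macrophage list was at 39.3 and 32.8 in the shallower spots and at 25.9 and 15.1 in the deeper ones. After thinning to 500 non-mitochondrial UMIs the fibroblast median was -0.12 and the macrophage median 0.17. The contractile list was lower in adipose spots in both depth classes, at 220.5 against 332 and 408 against 555.

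The 3 selectors did not mark the same surroundings, read here mostly in spots with exactly 1 selector UMI, which were not counted as adipose. In the 147 spots that had CIDEA as the only selector, the macrophage list summed to 20.3 per 10000, and in the 135 spots that had AQP8 alone it summed to 31.1, a ratio of 1.53 (1.37 to 1.71). The 191 spots with PTGER3 alone lay between at 22.6, and the other spots at 18.7. CD74, the invariant chain of antigen presentation, had 59 UMIs in AQP8-only and 18 in CIDEA-only spots, a ratio of 3.38 (1.96 to 6.08). CD68 had 32 and 9 UMIs, a ratio of 3.66 (1.71 to 8.72). The AQP8-only and CIDEA-only spots had medians of 2177 and 2158 UMIs, with 44.4 and 43.5% under 2000, and mitochondrial shares of 30.5 and 34.3%. Within the spots under 2000 UMIs the ratio of the macrophage list was 1.42 (1.17 to 1.72), and within the deeper spots 1.57 (1.37 to 1.80).

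Fibroblast genes were in that order too. The list summed to 219 per 10000 with AQP8 alone, 168 with PTGER3 alone and 153 with CIDEA alone, beside 151 in other spots, and COL3A1 was 1.74-fold higher (1.59 to 1.90) with AQP8 than with CIDEA. The fibroblast list ratio was 1.29 (1.21 to 1.37) in the shallower and 1.5 (1.42 to 1.58) in the deeper spots. Of the genes 2-fold higher in adipose spots, LPL stood at 21.2 and 21.6 per 10000, a ratio of 0.982 (0.873 to 1.11). SNCG stood at 17.7 and 19.1, a ratio of 0.926 (0.815 to 1.05), and ALDOC at 10.0 and 10.7. CEBPA was 1.42-fold higher (1.11 to 1.81) with AQP8, about the ratio of the fibroblast list. Most of these spots held a single selector UMI and were not adipose spots by the rule, since only 96 adipose spots had 1 selector gene. In adipose spots with 2 or more UMIs of CIDEA, PTGER3 or AQP8, which overlap, the macrophage list summed to 22.9, 31.2 and 38.7 per 10000. The comparison was chosen after the values were seen.

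The named higher genes were also read with each selector alone, in spots with 2 or more UMIs of it. These 54, 65 and 88 spots belong to the 283 on which the genes were picked, and they overlap, so the values are a description. The ratio was 2 or more for 17 of the 20 genes with CIDEA, 17 with AQP8 and 17 with PTGER3, and for 14 with each. It was above 1 with each selector for 19 genes. The exception was NAGK, whose 3 UMIs in the CIDEA spots gave a ratio of 0.878 (0.176 to 2.70).

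Collagen-rich spots made up about the same share of adipose as of other spots. Of 66 spots with 3 or more UMIs of COL1A1, the main collagen of tendon and scar, 13 were adipose spots, which is 19.7% of the COL1A1 spots, beside 16.4% of all spots, and 4.59% of the adipose spots. Among other spots the share was 3.97%. Against the 37 other spots of that kind, the adipose spots without 3 COL1A1 UMIs had 135 of 1350 measured genes 2-fold higher (10%) and 137 lower (10.1%). COL1A1 chose the second set of spots and is no result here.

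In that comparison the muscle genes stood on the other side. The contractile list was at 1.75-fold (1.66 to 1.85) in adipose over collagen-rich spots, with 7 of 17 genes past 2-fold, beside 10% of all genes. The glycolysis list was at 2.04-fold (1.89 to 2.20). The fatty acid uptake list was at 2.18-fold (1.92 to 2.49), with 4 of 7 genes past 2-fold. The fibroblast list, which holds COL1A1, was at 0.280-fold and the macrophage list at 0.472-fold (0.422 to 0.529). The mitochondrial share of the collagen-rich spots was 16.6%. The adipose spots therefore lay between the collagen-rich spots and the whole of the other spots in their contractile and macrophage levels.

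**Figure D5:**
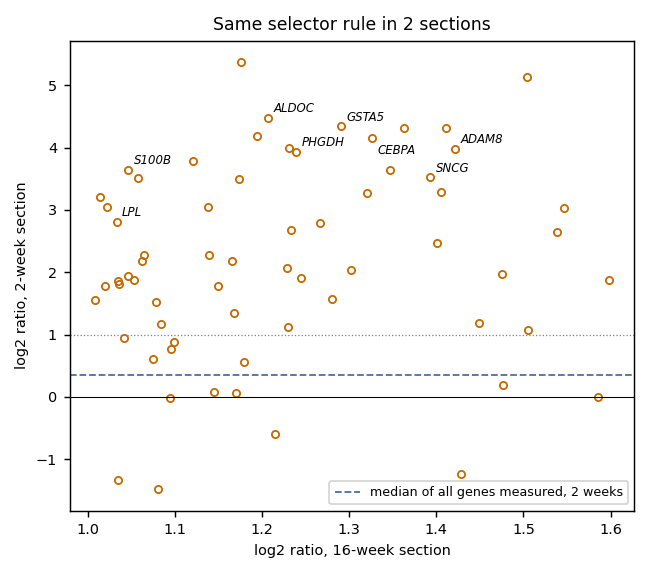
Log2 ratios of 65 genes that were 2-fold higher in adipose spots at 16 weeks (horizontal axis) and had enough UMIs at 2 weeks (vertical axis), where the same selector rule gave 13 spots against 775. The dotted line marks 2-fold and the dashed line the median of all genes at 2 weeks (0.34); 51 of the 65 points lie on or above the dotted line.

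The 2-week section gave a separate look at the same genes in spots that played no part in choosing them. There 13 spots met the rule, with a median of 4889 UMIs, and 775 served as other spots. Of the 124 genes, 65 had 50 or more UMIs at 2 weeks, and 51 of them (78.5%) were 2-fold higher in the rule spots, against 26.6% of all 2681 measured genes, of which 15.4% were 2-fold lower. By the plain ratio of levels, without the 0.5 UMI added to each sum, 48 of the 65 (73.8%) were at 2 or more, against 21.6% of all genes. Their median log2 ratio was 2.06, beside 0.34 for all genes. The counting interval was above 1 for 41 of the 65 and below 1 for 0. The shares of all genes with such intervals were not computed at 2 weeks, so these counts have no background. Leaving out each of the 13 spots in turn gave between 47 and 52 genes past 2-fold. The minimum of 50 UMIs was applied to rule and other spots together. DYNLT1, TAOK2, EXTL3, CD36, IMPDH1 and FABP7, all past 2-fold, had only 41 to 49 UMIs in the other spots. These genes thus entered the 65 only through the rule spots, where they were high.

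LPL was detected in all 13 spots, with 4, 21 and 57 UMIs as the lowest, median and highest, and had a median of 2 and a highest count of 41 in the other spots. Its levels of 57.5 and 8.21 per 10000 differed 7.0-fold (6.17 to 7.92), and 6.34-fold without the spot with most LPL. CEBPA was at 17.6-fold (12.3 to 25) on 45 and 127 UMIs, ALDOC at 22.0-fold (13.5 to 35.2) on 27 and 61, and SNCG at 11.3-fold (6.77 to 18.1) on 22 and 97. FABP7, a fatty acid binding protein known from neural cells, was at 41.3-fold (25.4 to 66.7) on 34 and 41 UMIs at 2 weeks and at 2.26-fold at 16 weeks. It was chosen after its values were seen, as the gene with the largest 2-week ratio of the 65. It had enough UMIs to be counted only through the 13 spots.

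A few genes rested on single spots. With each of the 65 genes taken without its own highest spot, 41 had a ratio of 2 or more at 2 weeks, and CCL21 and ENSOCUG00000008330 turned from 2 or more to a ratio below 1. CCL21, a chemokine of lymphatic vessels, had 51 of its 55 UMIs of the 13 spots in 1 of them, and its ratio of 6.83 became 0.560 without that spot. At 16 weeks 94 of its 416 UMIs were in 1 adipose spot, and its log2 ratio was 1.27 with and 0.91 without it. Muscle and stroma also differed at 2 weeks, with the contractile list at 0.520-fold, the fibroblast list at 2.32-fold and the macrophage list at 2.83-fold, and mitochondrial genes at 22.8% of UMIs in the 13 spots and 34.1% in the others. The part of these in the ratios of the 65 genes was not tested.

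Across whole sections, all 20 named higher genes had their highest level per 10000 in the 16-week section, as had 6 of the 12 named lower genes. The genes were measured and picked in that section, and 60.0% of all genes measured were highest there. SNCG stood at 14.9 per 10000 at 16 weeks, 0.530 at 2 weeks, 0.298 in stored healthy and 0.607 in fresh healthy muscle. LPL stood at 19.2, 9.35, 5.80 and 6.79 in the same order, and PRKAR2B at 0.432, 0.0481, 0.00785 and 0.00843, the last 3 on 13, 5 and 3 UMIs. MYH13, the gene with the smallest ratio, was also highest in the 16-week section, at 0.670 per 10000 against 0.0628 to 0.233. Sections are compared here by value alone.

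Positions could be used only in groups, since the barcodes were not paired with coordinates in the files used here. Spots were sorted by which other sections also had tissue over the same array position, and this gave 8 groups. The adipose share was lowest, 5.43% (1.79 to 12.2%), in the 92 spots that no other section covered, 69.6% of which lay on the border of the section. It was 22.6% (15.6 to 31.0%) in the 124 spots shared with the fresh healthy section alone and 15.1% (12.5 to 17.9%) in the largest group of 709. Adipose spots were found in all 8 groups, and in the 24 spots shared with the 2-week section alone the 8 adipose spots gave 33.3% with an interval of 15.6 to 55.3%.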

How the data were processed

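The authors ran Space Ranger 1.2.0 on the reads, with OryCun2.0 as the rabbit genome, to assign each UMI to a gene and a spot, and the deposited matrices hold these raw counts for the spots under tissue, 4079313 to 12536450 UMIs per section. The other files list barcodes, gene identifiers and array positions. Only these counts were used. UMIs were summed over the adipose and other spots of the 16-week section. Levels are relative to the summed UMIs without the 37 mitochondrial genes, and log2 ratios were taken after adding 0.5 UMI to each sum. Ratios carry exact conditional 95% intervals and shares exact Clopper-Pearson intervals, for counting error only. Genes needed 50 UMIs in both groups together, and the selectors were left out, which left 2893 of 21099 genes. A gene could thus pass only through the adipose spots where it was high. Among the named higher genes this held for those with 23 to 44 UMIs in the other spots, such as PRKAR2B.

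The text names the 20 largest and 12 smallest ratios among genes with a symbol, the 5 largest without one, examples from the gene lists, and the 2 genes on either side of the 2-fold threshold, with exceptions said where they occur. None of the 5 identifiers matched the RefSeq table. The members, gene lists and comparisons were chosen with earlier results of these data known. The marker check of a further cell type is not reported here. Doublets were not called, because a spot holds several cells. Barcodes mark array positions, and 34.9 to 84.2% of those in the 16-week section also occurred in each other section. Interval coverage was tested on simulated counts, and thinning on the counts of the 16-week section. Python 3.11.15, numpy 2.4.6, scipy 1.17.1 and pandas 2.3.3 were used.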

Additional observations from a re-analysis of the deposited data

How the results depend on the processing

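No paired analysis was possible because there was 1 section per condition and no result came from a test. Each value below replaces 1 choice. The number of genes at least 2-fold higher, 124, became 50 with 1 or more and 222 with 3 or more selector UMIs, 241 with mitochondrial genes in the denominator, 75 with the median gene at 0 and 35 after thinning to 500 UMIs. It was 284 with 20 and 33 with 200 UMIs required per gene, 24 when the whole interval had to lie past 2-fold, and 254 and 198 with AQP8 or PTGER3 as the only selector. The number lower, 26, became 8 with 1 or more and 102 with 3 or more selector UMIs, 52 with the median gene at 0, 45 with spots weighing equally and 46 without the deepest 5% of adipose spots. It was 98 with 20 and 1 with 200 UMIs per gene, 1 by the interval, and 139, 137 and 104 with CIDEA, AQP8 or PTGER3 alone. The cause of these shifts was not tested. Counts under other UMI minimums, after thinning or with other sets of spots come from other numbers of measured genes. They cannot be set directly against 124 and 26.

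The contractile median, -0.52, was -0.37 and -0.72 with 1 or 3 selector UMIs, -0.35 with mitochondrial genes in the denominator and -0.35 with CIDEA alone. The slow muscle median, -0.58, was -0.78 with 3 selector UMIs, -0.74 with the median gene at 0, -0.77 with AQP8, -0.88 with PTGER3 and -0.76 against other spots without SNCG. The glycolysis median was -0.42 with AQP8. The fibroblast median, 0.40, was 0.57 with mitochondrial genes in the denominator, 0.68 without COL1A1-rich other spots and 0.60 with AQP8, and it changed sign to -0.12 after thinning and -0.19 with CIDEA. The macrophage median, 0.61, was 0.79 with 3 selector UMIs, 0.78 with mitochondrial genes in the denominator, 0.74 without COL1A1-rich other spots, 0.17 after thinning, 0.020 with CIDEA and 1.24 with AQP8. The choices of AQP8 alone, PTGER3 alone, other spots without SNCG, plain ratios (121 genes higher and 35 lower) and MYH13 without the spot holding most of it were added after seeing the data.

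With 1 or more selector UMIs the adipose spots numbered 667 and the shares were 38.6% at 16 weeks, 0.738% in stored healthy, 5.62% at 2 weeks and 1.59% in fresh healthy muscle. With 3 or more there were 124 spots, 7.18% at 16 weeks, 0% in stored healthy, 0.937% at 2 weeks and 0.0513% in fresh healthy muscle. After thinning, 2 or more selector UMIs were found in 4% of the spots deep enough to thin at 16 weeks, 0.741% at 2 weeks and 0% in fresh healthy muscle. Of the named genes, MYH13 reversed to a log2 ratio of 0.62 with 1 or more selector UMIs and ANK3 to 0.039 after thinning. All 20 named higher genes had log2 ratios above 0 in the 16 alternatives run for them, and 12 were past 2-fold in each. NAGK with CIDEA alone was above 0 only through the 0.5 UMI added, at a plain ratio of 0.878. Of the 12 lower genes, 10 stayed below 0. Depth limits the rarer genes, many of which rest on under 60 UMIs in the adipose spots.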

Other observations

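Glutathione-linked detoxification genes appeared among the genes 2-fold higher in adipose spots at 16 weeks, and were picked after their values were seen. GSTA5, a glutathione transferase, was at 2.45-fold (2.21 to 2.70) on 700 and 892 UMIs, and MGST1, the microsomal form, at 2.29-fold (2.01 to 2.61) on 403 and 549. In the 13 spots that met the selector rule at 2 weeks they were at 20.2-fold and 18.0-fold on 126 and 38 UMIs. S100A4, a calcium-binding protein of fibroblasts and leukocytes, was at 2.07-fold (1.78 to 2.41) and 3.64-fold in the same comparisons.

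JCHAIN, the joining chain of secreted antibodies, was at 2.45-fold (1.58 to 3.77) on 40 and 51 UMIs at 16 weeks and was found in 7.77% of adipose and 3.33% of other spots. Against the collagen-rich spots, the order was the reverse for the list of plasma, B and T cell genes that holds JCHAIN. Its sum was at 0.470-fold (0.315 to 0.719) in the adipose spots without 3 COL1A1 UMIs.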
